A study of Drosophila melanogaster with 4 samples.

Results

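The autophagy core genes of Drosophila melanogaster followed here are 10 genes, Atg1, Atg13, Atg9, Atg18a, Atg7, Atg3, Atg5, Atg12, Atg8a and ref(2)P. They were chosen by name, and each was found as 1 row among the 16198 rows of the authors' deposited Cuffdiff gene table by matching the transcript accessions of the row to gene symbols. The authors tested 9 of the 10, among 7058 tested rows in all. Atg7 had a row and values but was marked as not tested.

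Polyadenylated RNA of whole third-instar larvae, collected 100 h after egg laying, was sequenced from 2 libraries labelled homozygous for the allele kr-h1[7] and from 2 libraries labelled wildtype. The labels name no strain for the wildtype larvae, no other allele in either group and no treatment. The deposited table holds 1 value per group, in FPKM (fragments scaled to the length of the transcript and the size of the library), so there is no value per library, no replicate spread could be computed, and the depth of the libraries is unknown. A gene is called higher or lower where the deposited Cuffdiff q-value, the p-value adjusted over all tested rows, is at most 0.05.

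Autophagy encloses cytoplasm in a double membrane, the autophagosome, and delivers it to the lysosome for breakdown. The Atg1 kinase complex starts the process, Atg9 vesicles and proteins that bind phosphatidylinositol 3-phosphate help the membrane grow, and a pair of ubiquitin-like conjugation systems attaches Atg8 to it. In Drosophila larvae the fat body is a classical site of autophagy, which is induced there by starvation and, towards the end of larval life, by the steroid hormone ecdysone. Kr-h1 is a zinc-finger transcription factor that acts downstream of juvenile hormone. The comparison asks how transcript levels differ in larvae that are mutant for Kr-h1.

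Kr-h1 itself had 9.79 FPKM in mutant-labelled larvae, against 2.98 FPKM in wildtype-labelled larvae. The transcript of the mutated gene was therefore higher under the mutant label (3.28-fold, with q = 0.000889 by Cuffdiff in the authors' deposited table). A mutant allele can still be transcribed, so this level does not check the labels, and every direction below rests on them.

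None of the 9 tested core genes was called in either direction by the deposited Cuffdiff test. Of all tested rows, 13.0% were called, 4.32% as higher and 8.73% as lower in mutant-labelled larvae. At an unadjusted Cuffdiff p-value under 0.05, only Atg9 passed among the 9 (lower in mutant-labelled larvae), where 15.9% of all tested rows passed as lower. Among the 9 genes 5 had a higher and 4 a lower value in mutant-labelled larvae. Without Atg12, which was listed at 0 in wildtype-labelled larvae, 4 were higher and 4 lower. The median log2 ratio of the 9 genes, computed as log2((mutant-labelled FPKM + 1)/(wildtype-labelled FPKM + 1)), was 0.07, and 0.01 without Atg12, beside -0.03 over all tested rows. Summed over the 10 genes, the level was 237 FPKM in mutant-labelled and 231 FPKM in wildtype-labelled larvae. Leaving out Atg12 reversed the order, with 228 FPKM in mutant-labelled and 231 FPKM in wildtype-labelled larvae.

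**Figure D1:**
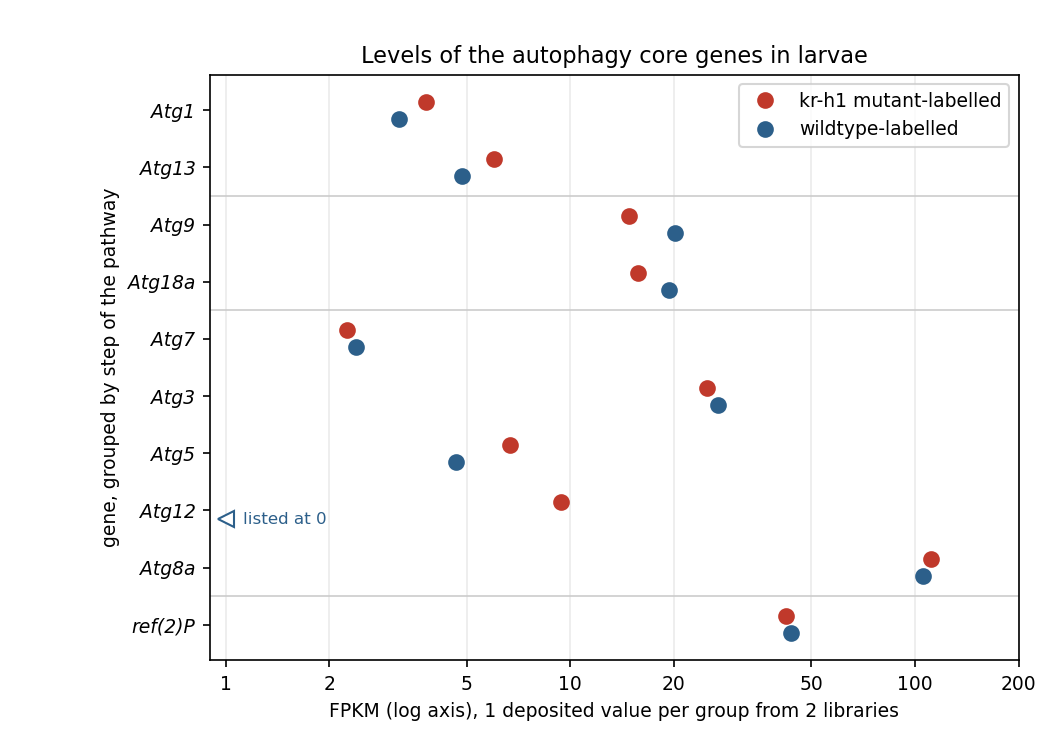
FPKM (log axis) of the 10 autophagy core genes, 1 deposited value per group from 2 libraries, with mutant-labelled larvae in red above wildtype-labelled larvae in blue and lines between the steps of the pathway. Levels ran from 2.24 FPKM (Atg7) to 111 FPKM (Atg8a) in mutant-labelled larvae, and Atg12 was the gene listed at 0 in wildtype-labelled larvae.

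The Atg1 kinase complex was represented by Atg1, the serine/threonine kinase that starts autophagosome formation, and Atg13, its regulatory partner. Atg1 had 3.82 FPKM in mutant-labelled and 3.19 FPKM in wildtype-labelled larvae. Atg13 had 5.99 FPKM in mutant-labelled and 4.87 FPKM in wildtype-labelled larvae. Both values were somewhat larger under the mutant label, and neither difference was called (Cuffdiff q-values 0.680 for Atg1 and 0.586 for Atg13 in the authors' deposited table).

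The deposited p-values allow an approximate 95% interval for each fold, with the standard error taken as the log2 fold divided by the normal quantile of its p-value. For Atg1 the fold of mutant-labelled over wildtype-labelled FPKM was 1.20, with an interval of 0.739 to 1.95. Atg13 gave a fold of 1.23 with an interval of 0.795 to 1.90. Both intervals include a fold of 1 and reach far to either side of it. Cuffdiff's own test statistic, read as a normal deviate, gave wider intervals (0.419 to 3.44 for Atg1 and 0.528 to 2.87 for Atg13). Over all tested rows the statistic was a median of 0.482 times the normal quantile of the p-value, and the sources used here do not say how Cuffdiff was set to derive the p-values.

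Atg1 spans 12784429 to 12805116 on arm 3L, minus strand, in Ensembl release 115, and its row shares this locus with CG42709 (8.73 FPKM in mutant-labelled and 6.63 FPKM in wildtype-labelled larvae). No exon of another annotated gene overlaps those of Atg1. Atg13 lies at 8349815 to 8352817 on arm 3R, plus strand, alone in its locus.

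Atg9 and Atg18a showed the 2 largest decreases in value among the tested core genes, and neither was called. Atg9 encodes the transmembrane protein of the vesicles that seed the autophagosome. Its level was 14.8 FPKM in mutant-labelled larvae, against 20.1 FPKM in wildtype-labelled larvae. Of all core genes it came closest to the threshold, with p = 0.011 and q = 0.0709 by Cuffdiff, both from the authors' deposited table. The fold was 0.737, with an interval of 0.582 to 0.932 from the p-value and 0.463 to 1.17 from the test statistic. The first interval leaves out 1 and the second includes it, and neither takes account of the number of rows tested.

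At a looser limit, a q-value of at most 0.1, Atg9 would be the single core gene called, where 11.6% of all tested rows would be called lower. Its log2 ratio stood at percentile 17.6 of all tested rows, so a ratio this low was not rare among them. Atg18a, a WD-repeat protein that binds phosphatidylinositol 3-phosphate on the growing membrane, had 15.7 FPKM in mutant-labelled and 19.4 FPKM in wildtype-labelled larvae. The fold of Atg18a was 0.812 (interval 0.612 to 1.08, Cuffdiff q-value 0.369 in the authors' deposited table). Atg9 (2R, 16294400 to 16297232, plus strand) and Atg18a (3L, 8186857 to 8191118, plus strand) each have a locus of their own in the table, with no exon shared with another annotated gene.

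**Figure D2:**
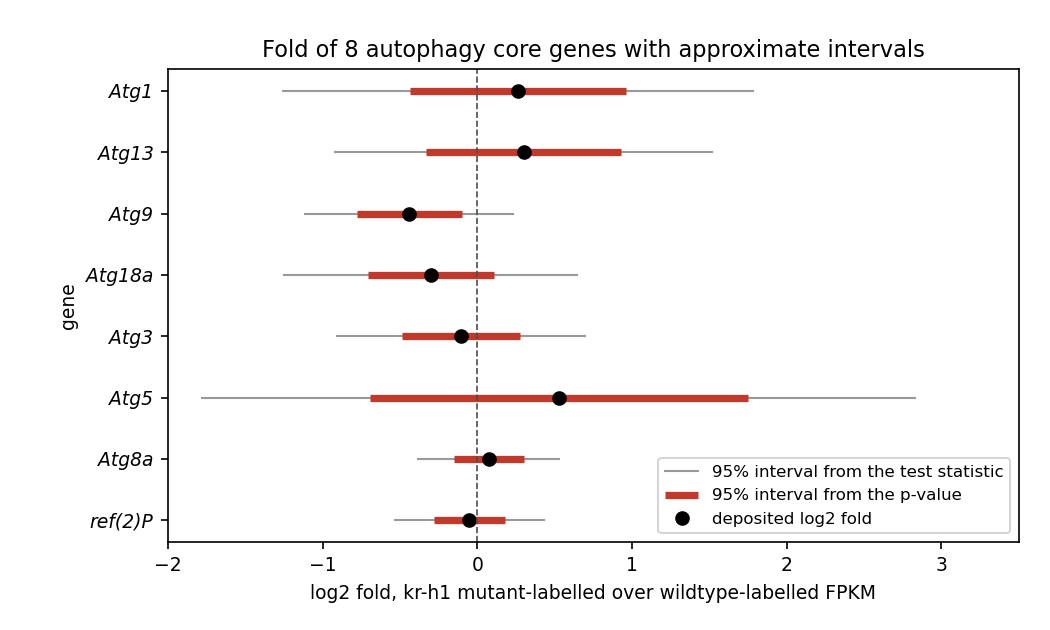
Deposited log2 fold (horizontal axis, mutant-labelled over wildtype-labelled FPKM) of the 8 core genes with a test and values above 0 in both groups, with approximate 95% intervals from the p-value (thick red) and from the test statistic (thin grey). The interval from the p-value leaves out 0 for Atg9 alone (-0.78 to -0.10), and the intervals from the test statistic all include 0.

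The conjugation systems differed widely in level among their members. Atg8a, the ubiquitin-like protein that is attached to the autophagosome membrane, was the most abundant core gene. It had 111 FPKM in mutant-labelled and 106 FPKM in wildtype-labelled larvae, a level above that of 91.2% of tested rows (percentile of the mean of both groups). Atg3, the E2-like enzyme that hands Atg8a to the membrane lipid, had 25.0 FPKM in mutant-labelled and 26.9 FPKM in wildtype-labelled larvae. Atg7, the E1-like enzyme that activates both Atg8a and Atg12, had 2.24 FPKM in mutant-labelled and 2.38 FPKM in wildtype-labelled larvae and was not tested by the authors.

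Per length, Atg8a was 49.7 times the level of Atg7 in mutant-labelled larvae and 44.4 times in wildtype-labelled larvae. The ratio of its level to that of Atg3 was 4.46 in mutant-labelled and 3.93 in wildtype-labelled larvae. The same order, Atg8a over Atg3 over Atg7, thus held in both groups.

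The fold of Atg8a was 1.05, with an interval of 0.901 to 1.23 from the p-value and 0.768 to 1.45 from the test statistic (Cuffdiff q-value 0.719 in the authors' deposited table). For Atg3 the fold was 0.930 (interval 0.713 to 1.21, q-value 0.774). Atg8a lies at 10764878 to 10768338 on the X chromosome, minus strand, and Atg3 at 18748687 to 18750483 on arm 3L, plus strand, both alone in their loci. The row of Atg7, at 18620466 to 18625044 on arm 2R, minus strand, shares its locus with CG5335, which had 22.7 FPKM in mutant-labelled and 27.5 FPKM in wildtype-labelled larvae.

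Atg12 and Atg5 form the second conjugate, in which the ubiquitin-like Atg12 is linked to Atg5 and the pair then promotes the attachment of Atg8. Atg12 had 9.42 FPKM in mutant-labelled larvae and was listed at 0 in wildtype-labelled larvae. This was the largest apparent difference among the core genes, and it was not called (Cuffdiff p-value 0.1004 and q-value 0.294 in the authors' deposited table). A listed 0 can be a failed estimate, so no fold is given. Among all tested rows 74 were listed at 0 in wildtype-labelled larvae and 19 in mutant-labelled larvae. Of the 35 tested rows with a wildtype-labelled 0 and 5 to 15 FPKM in mutant-labelled larvae, 7 were called.

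The Atg12 gene is the shortest of the 10, with 469 exonic nucleotides at 12136967 to 12137559 on arm 3L, plus strand. Of these nucleotides 64 (13.6%) also lie in exons of ND-SGDH, a respiratory complex I subunit gene on the opposite strand, in whose locus the Atg12 row is placed. ND-SGDH had 160 FPKM in mutant-labelled and 141 FPKM in wildtype-labelled larvae. Whether the counting used strand is not given in the sources used here, and fragments of the overlap cannot then be told apart.

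Atg5 had 6.70 FPKM in mutant-labelled and 4.65 FPKM in wildtype-labelled larvae. Its fold of 1.44 carried the widest interval of the core genes, 0.619 to 3.36 (Cuffdiff q-value 0.628 in the authors' deposited table). The gene lies at 7314622 to 7323770 on the X chromosome, minus strand. Its row was assigned to a bundle of 268075 nucleotides that holds 16 other rows. No exon of another annotated gene overlaps those of Atg5.

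The receptor ref(2)P, the Drosophila p62, binds ubiquitinated cargo and Atg8a and is itself degraded by autophagy. Its protein is widely used to read out autophagic flux, which a transcript level does not measure. It had 42.3 FPKM in mutant-labelled and 43.8 FPKM in wildtype-labelled larvae, the second highest level of the core genes in both groups. The fold was 0.966, with an interval of 0.822 to 1.13 from the p-value and 0.693 to 1.35 from the test statistic (Cuffdiff q-value 0.825 in the authors' deposited table). The gene lies at 19542468 to 19545548 on arm 2L, plus strand, and 173 of its 2395 exonic nucleotides (7.22%) overlap exons of CG10337 on the opposite strand. CG10337 had 10.2 FPKM in mutant-labelled and 15.99 FPKM in wildtype-labelled larvae and was not called (q-value 0.319).

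How large a difference could be called depended on the level. Of the tested rows with a mean of 2 to 10 FPKM, where Atg1, Atg13, Atg5 and Atg12 lie, 4.33% were called, and the median fold of those called, taken in either direction, was 1.85. Among rows in that range that differed by at least 1.5-fold, 9.22% were called. For a mean of 10 to 50 FPKM, the range of Atg9, Atg18a, Atg3 and ref(2)P, 12.0% of rows were called with a median fold of 1.59. There 37.5% of the rows that differed by at least 1.5-fold were called. Atg8a lies between 50 and 200 FPKM, where 33.1% of tested rows were called, the median called fold was 1.40, and 82.7% of the differences of at least 1.5-fold passed. Observed differences of at least 1.5-fold were thus usually called at the level of Atg8a and seldom at that of Atg1, Atg13 and Atg5. These shares include larger observed folds, so they do not give the chance that a true difference of 1.5-fold is called.

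**Figure D3:**
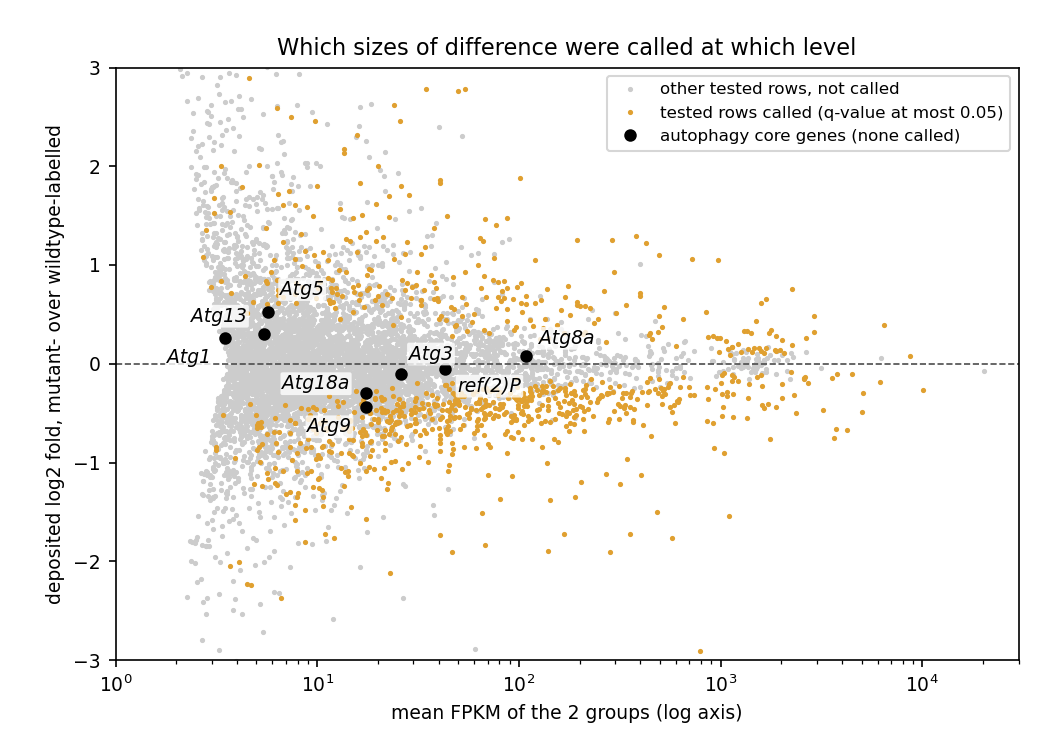
Deposited log2 fold (vertical axis, mutant-labelled over wildtype-labelled) against the mean FPKM of both groups (log axis) for 6910 tested rows, called rows in orange, other rows in grey and 8 core genes in black; 55 rows lie outside the axes, and rows listed at 0 in a group are not drawn. Atg9 sits at the edge of the called rows below 0, and the called rows draw closer to 0 as the level rises.

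The other genes of autophagy were read from 7 lists of 65 genes, of which 64 had a row and 54 were tested. The deposited Cuffdiff test called 3 of the 54 lower (5.56%) and 0 higher, beside 8.73% and 4.32% of all tested rows. At an unadjusted p-value under 0.05, 13 of the 54 passed, 4 higher and 9 lower, where 25.8% of all tested rows passed, 9.92% as higher and 15.9% as lower. Their median log2 ratio was 0.00 (-0.03 over all tested rows), with 27 values above and 27 below 0. The genes called lower were Vamp7, Rab7 and cathD, which act after the autophagosome has formed. Their fold intervals from the test statistic were 0.316 to 1.20 for Vamp7, 0.476 to 1.13 for Rab7 and 0.659 to 1.03 for cathD. As for Atg9, each of these includes equal levels in both groups.

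Rab7, the small GTPase that brings autophagosomes and late endosomes to the lysosome, had 49.2 FPKM in mutant-labelled and 67.0 FPKM in wildtype-labelled larvae (Cuffdiff q-value 0.0423 in the authors' deposited table). Vamp7, a membrane-fusion SNARE of late endosomes and lysosomes, fell to 26.5 FPKM in mutant-labelled larvae, against 43.1 FPKM in wildtype-labelled larvae (q-value 0.0316; another row has the same locus). These were the 2 genes called among 10 tested genes of autophagosome-lysosome fusion, where 8.73% of all tested rows were called lower. At the level of Rab7 (50 to 200 FPKM) that share was 24.7%, and at that of Vamp7 (10 to 50 FPKM) 8.05%. The other 8 were not called, among them the subunit genes of the HOPS tethering complex that were tested, Vps16A, car and lt. These subunit genes had means of 2 to 10 FPKM, where 4.33% of tested rows were called in either direction. The lack of a call there does not show that they were unchanged. Named after their values were seen, Vps16A had 6.11 FPKM in mutant-labelled and 5.88 FPKM in wildtype-labelled larvae, and car had 4.68 FPKM in mutant-labelled and 5.20 FPKM in wildtype-labelled larvae. For lt the levels were 7.47 FPKM in mutant-labelled and 4.68 FPKM in wildtype-labelled larvae (q-value 0.254).

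Lysosomal genes were the most abundant of these lists. Of 9 tested members 1, cathD, was called lower, where 8.73% of all tested rows were. At the level of cathD (a mean of 50 to 200 FPKM) 24.7% of tested rows were called lower. The aspartic protease gene cathD had 153 FPKM in mutant-labelled and 186 FPKM in wildtype-labelled larvae (Cuffdiff q-value 0.00947 in the authors' deposited table). Npc1a, the Niemann-Pick cholesterol transporter gene, showed the largest ratio of the list and was not called, with 13.5 FPKM in mutant-labelled and 18.5 FPKM in wildtype-labelled larvae (q-value 0.0752). Named after their values were seen, the cysteine protease gene CtsB had 180 FPKM in mutant-labelled and 155 FPKM in wildtype-labelled larvae, and the membrane protein gene Lamp1 had 134 FPKM in mutant-labelled and 118 FPKM in wildtype-labelled larvae. Neither was called (Cuffdiff q-values 0.0752 for CtsB, the same as for Npc1a, and 0.271 for Lamp1). For both the larger value was that of mutant-labelled larvae.

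**Figure D4:**
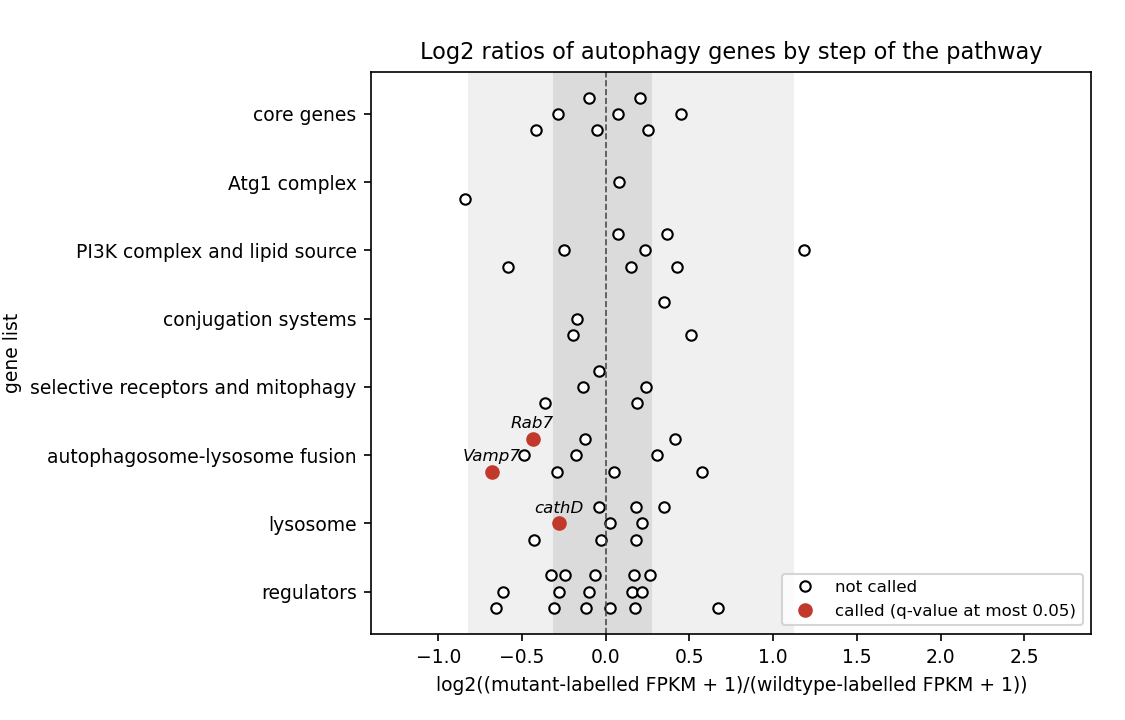
Log2((mutant-labelled FPKM + 1)/(wildtype-labelled FPKM + 1)) of the tested autophagy genes with values above 0 in both groups, by step of the pathway, with called genes filled and named. Grey bands hold the middle 50% and 90% of all tested rows, and the 3 called genes lie below 0 in the fusion and lysosome lists.

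The 10 tested genes on the lists of the Atg1 complex and of the phosphatidylinositol 3-kinase complex with the lipid supply held no Cuffdiff call. Most had means of 2 to 10 FPKM, where 4.33% of tested rows were called, beside 13.0% of all tested rows. At an unadjusted Cuffdiff p-value under 0.05, 2 of them passed, both higher and both on the second list. Of all tested rows, 9.92% passed as higher and 25.8% in either direction. In the Atg1 complex, the scaffold gene Atg17 had 4.93 FPKM in mutant-labelled and 4.60 FPKM in wildtype-labelled larvae, and Atg101 had 1.87 FPKM in mutant-labelled and 4.14 FPKM in wildtype-labelled larvae (Cuffdiff q-value 0.339 in the authors' deposited table). Of the 8 tested genes on that second list, 6 had a higher value in mutant-labelled larvae, as did 3282 of all 7058 tested rows. The largest ratio was that of Pi3K59F, the Vps34 lipid kinase, whose row also holds CG30184. It had 4.93 FPKM in mutant-labelled and 1.61 FPKM in wildtype-labelled larvae (p-value 0.00965 and q-value 0.0648, by Cuffdiff, in the table the authors deposited). Tango5, the fly Vmp1 gene, was the most abundant of them, with 16.7 FPKM in mutant-labelled and 12.2 FPKM in wildtype-labelled larvae (q-value 0.158).

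The other tested conjugation genes (4) and the selective receptors and mitophagy genes (5) held no call either, beside 13.0% of all tested rows. Atg4a, the protease that trims Atg8, had 15.6 FPKM in mutant-labelled and 18.0 FPKM in wildtype-labelled larvae. The row of Atg10, the E2-like enzyme for Atg12, also holds CG12822 and had 10.1 FPKM in mutant-labelled and 6.79 FPKM in wildtype-labelled larvae (Cuffdiff q-value 0.408 in the authors' deposited table). The mitophagy receptor gene BNIP3 had 13.7 FPKM in mutant-labelled and 18.0 FPKM in wildtype-labelled larvae, and cnc, the Nrf2 homologue that works with the adaptor Keap1, had 26.0 FPKM in mutant-labelled and 26.8 FPKM in wildtype-labelled larvae.

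Among 16 tested regulators none was called, and 4 had an unadjusted Cuffdiff p-value under 0.05 (1 higher and 3 lower), where 25.8% of all tested rows did. The 3 lower ones, named after their values were seen, were RagA-B, a GTPase gene of TOR activation (11.5 FPKM in mutant-labelled and 18.7 FPKM in wildtype-labelled larvae), and genes of AMP-activated kinase subunits. Of these, alc had 15.8 FPKM in mutant-labelled and 24.7 FPKM in wildtype-labelled larvae, and AMPKalpha had 17.2 FPKM in mutant-labelled and 21.6 FPKM in wildtype-labelled larvae. Each of these 3 rows has the same locus as another row. The TOR kinase gene mTor, whose product restrains Atg1 when nutrients are plentiful, had 4.35 FPKM in mutant-labelled and 5.34 FPKM in wildtype-labelled larvae (q-value 0.330 in the authors' deposited table). Mitf, the fly relative of the lysosomal gene activator TFEB, showed the largest ratio of the list, with 9.94 FPKM in mutant-labelled and 5.88 FPKM in wildtype-labelled larvae (p-value 0.0256, q-value 0.126). The values of foxo were 8.08 FPKM in mutant-labelled and 6.57 FPKM in wildtype-labelled larvae, and those of Rheb, the most abundant regulator, 27.0 FPKM in mutant-labelled and 23.1 FPKM in wildtype-labelled larvae.

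Markers of single tissues were called in the same whole-larva libraries, where 8.73% of all tested rows were called lower. Of the 17 fat body and muscle markers 15 had a mean of at least 200 FPKM, and at that level 36.3% of all tested rows were called lower. All 6 fat body and serum protein genes were called lower, with a summed level of 17936 FPKM in mutant-labelled and 23210 FPKM in wildtype-labelled larvae. Of 11 muscle markers 9 were called lower, and their sum was 12489 FPKM in mutant-labelled and 15383 FPKM in wildtype-labelled larvae. Of 5 tested haemocyte markers 3 were called lower, and all 6 listed ones summed to 61.5 FPKM in mutant-labelled and 91.05 FPKM in wildtype-labelled larvae. The call went to 1 of 6 salivary glue genes, which was lower, with a sum over the list of 2433 FPKM in mutant-labelled and 2761 FPKM in wildtype-labelled larvae. Among 5 midgut genes 2 were lower and 1 was higher, and they summed to 5017 FPKM in mutant-labelled and 6387 FPKM in wildtype-labelled larvae. Without the serine protease gene Jon99Fi (559 FPKM in mutant-labelled and 1630 FPKM in wildtype-labelled larvae) the midgut sums were 4458 FPKM in mutant-labelled and 4757 FPKM in wildtype-labelled larvae. Of these sums, Jon65Aiv alone made up 4347 FPKM in mutant-labelled and 4657 FPKM in wildtype-labelled larvae. In whole larvae fewer cells of a type and less RNA per cell cannot be told apart, and the part of tissue makeup in the lower values of Atg9, Rab7, Vamp7 and cathD was not tested.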

How the data were processed

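Per the submitters' processing notes, TopHat2, Cufflinks and Cuffdiff were used; the sources used here give no version, setting, genome build or annotation. The FPKM values were made by the authors with Cuffdiff, 1 per group over its 2 libraries. The deposited log2 fold sets mutant-labelled over wildtype-labelled FPKM with no pseudocount. The deposited Cuffdiff test statistic, a score, was used for intervals only. Cuffdiff also gave the deposited p-values and q-values, and recomputing the Benjamini-Hochberg adjustment over 7058 tested rows returned the same q-values. Whether a group's libraries came from separate collections is not stated in the labels, so they may have varied for technical reasons only. How Cuffdiff modelled that variation is not given either. A p-value therefore need not measure how a gene varied between the 2 libraries of a group.

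Of 30529 transcript accessions, 30273 matched a RefSeq gene of Release 6. Gene positions and exons are those of Ensembl release 115 (BDGP6), which the rows' coordinates equalled for 7 core genes and enclosed in a larger locus for 3. Medians used log2 ratios with a pseudocount of 1 FPKM, which understates the change of low genes. The adjustment was tested on simulated data. The interval formula was run on them too, but their p-values came from the same normal formula. Its recovery of the standard error was thus fixed in advance and does not bear on Cuffdiff's p-values. Core genes and lists were chosen with earlier results of these data known. Genes named from the autophagy lists were those called, the most abundant and that with the largest ratio per list, plus mTor, Mitf and foxo. Exceptions are marked. The marker lists are given by counts and sums, with only Jon99Fi and Jon65Aiv named. Leaving Jon99Fi out of the midgut sums was not planned. Promoter motifs were not analysed here. The software was Python 3.11.15 with scipy 1.17.1, pandas 2.3.3, numpy 2.4.6 and, for plots, matplotlib 3.10.9.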

Additional observations from a re-analysis of the deposited data

How the results depend on the processing

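Of the core genes, 0 were called at a q-value of at most 0.05, at 0.01, with at least 1 FPKM required in both groups, and without rows that share a locus or hold several symbols. The count of core genes was 1 (Atg9, lower) at a q-value of at most 0.1, where 18.1% of all tested rows were called. It was also 1 (Atg9) when only rows with a mean of at least 10 FPKM were adjusted, where 23.6% were. The other autophagy genes gave 3 calls at 0.05 and 1 (cathD) at 0.01, where 8.08% of all tested rows were called. At 0.1 they gave 7 (5 lower and 2 higher, the latter Pi3K59F and CtsB), where 18.1% were called. They gave 4 (Rab2 added) with a mean of at least 10 FPKM, where 23.6% of rows were called, and 2 without shared loci, where the row of Vamp7 drops out. The median log2 ratio of the core genes became -0.10 over the 5 rows that share no locus, and lay between 0.01 and 0.13 under the other alternatives. With both groups scaled to the same FPKM total the log2 ratio of ref(2)P became 0.0090, against -0.05 as deposited. The totals were 543224 FPKM in mutant-labelled and 566151 FPKM in wildtype-labelled larvae, so this scaling raised the log2 ratio of each core gene. No other core gene changed sign under the pseudocounts and scalings tried, and Atg12 gave no value without a pseudocount. No paired analysis was possible because the table holds 1 value per group, and for the same reason no library could be left out. Depth is unknown, and differences among genes under 10 FPKM were seldom called.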

Other observations

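The authors did not test 10 of the other autophagy genes, each listed at 3.60 FPKM or less in both groups. Atg8b, the paralog of Atg8a, was listed at 0 in mutant-labelled larvae and at 3.48 FPKM in wildtype-labelled larvae. Eip93F, the ecdysone-induced factor that promotes developmental autophagy in the fat body, had 0.222 FPKM in mutant-labelled larvae and was listed at 0 in wildtype-labelled larvae. The HOPS subunit gene dor had 3.53 FPKM in mutant-labelled and 3.60 FPKM in wildtype-labelled larvae, and Vps39 had 2.50 FPKM in mutant-labelled and 1.94 FPKM in wildtype-labelled larvae. Vps15, the regulatory partner of the Vps34 kinase, had 3.57 FPKM in mutant-labelled and 2.44 FPKM in wildtype-labelled larvae. These genes were named after their values were seen.

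Chosen in the same way, the small GTPase gene Rab2, which also acts in autophagosome-lysosome fusion, had 29.4 FPKM in mutant-labelled and 41.5 FPKM in wildtype-labelled larvae. It was not called (Cuffdiff p-value 0.0103, q-value 0.0677 in the authors' deposited table), but would be at a q-value of at most 0.1 and when only rows with a mean of at least 10 FPKM were adjusted.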
